A study of Homo sapiens with 12 samples.

Results

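SUM149PT is a human basal-like breast cancer cell line that was derived from an inflammatory breast cancer, and its baseline transcriptome was set against those of MDA-MB-468 and HCC38, which are also lines of basal-like breast cancer. The 6 libraries used were those of the 12 in the series that came from cells given a non-targeting locked nucleic acid (LNA NS), 2 from each line, so the description rests on 2 SUM149PT libraries and 4 libraries of the other lines. In all 3 lines the LNA was added at 50 nM while the cells were being seeded, the medium was changed after 6 h and RNA was collected at 24 h, and strand-specific libraries were made from polyadenylated RNA. The remaining 6 libraries came from cells given LNAs against the lncRNA LINC01956 and are used here only to ask whether a difference between lines was called again (RP19 KD libraries).

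The 3 lines were not grown alike. SUM149PT was kept in DMEM/F12 with serum, insulin and hydrocortisone and came as a gift from another laboratory. MDA-MB-468 (DMEM/F12 with serum) and HCC38 (RPMI with serum) came from a cell bank. The SUM149PT medium held a lower percentage of serum than those of the other lines. The line, its source and its medium therefore cannot be told apart in any difference given here, and each line is a single line, so no statement extends to a tumor type. No source states whether both libraries of a line were grown as separate cultures, and p-values then measure only the spread between these libraries, which may be technical.

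Basal-like breast cancers are named for the keratins of the basal layer of the mammary duct, KRT5, KRT14 and KRT17, which in normal tissue are held on by the transcription factor p63 (TP63). Cells of that layer attach to the basement membrane through laminin-332 and hemidesmosomes, and keratinocytes that are stressed or wounded add KRT6 and KRT16. Inflammatory genes such as IL1B, CXCL8 and CSF3 are textbook targets of NF-kappaB, a family of transcription factors that also switches on its own inhibitors. KRAB zinc finger proteins form a large family of DNA-binding repressors, and many of their genes stand in clusters on chromosome 19.

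Levels are given as CPM, the counts of a gene divided by a scaled library size and multiplied by a fixed number. That size is the library's counts in the genes tested, multiplied by its TMM normalization factor. The factors were 0.951 and 0.946 for SUM149PT, 1.015 and 1.027 for MDA-MB-468 and 1.027 and 1.038 for HCC38. The SUM149PT libraries held 38929741 and 32187835 gene counts, those of MDA-MB-468 36675734 and 37509863, and those of HCC38 45544488 and 48229126. A gene was called higher or lower in SUM149PT when it passed an adjusted p of 0.1 and a 2-fold change in the same direction against MDA-MB-468 and against HCC38. By that rule 1696 of the 19590 genes tested were higher than in both lines (8.66%) and 2112 were lower than in both (10.8%). Both comparisons use the same SUM149PT libraries, so they are not independent. Against MDA-MB-468 alone 4031 genes were higher (20.6%) and 4146 lower (21.2%), and against HCC38 alone 3543 were higher (18.1%) and 4487 lower (22.9%). The genes just inside and just outside the 2-fold limit had smaller log2 differences of 1.0005 and 0.998 upward, and 1.003 and 0.9996 in size downward. In the RP19 KD libraries of the same lines, 1185 of the 1696 (69.9%) and 1526 of the 2112 (72.2%) were called again in the same direction, and 0 were called in the opposite direction in either set. Of the genes higher in SUM149PT 1095 were protein coding and 386 were lncRNAs, against 1583 and 301 of those lower. None of 16 reference genes, such as ACTB, GAPDH and TBP, was called in either direction, a rule that cannot show shifts under 2-fold. Their median log2 difference was -0.05 against MDA-MB-468 and 0.31 against HCC38, where that of all genes was 0.01 and -0.04. LINC01956 itself was at 10.8 and 11.3 CPM in SUM149PT, 0.779 and 0.598 in MDA-MB-468 and 14.3 and 14.7 in HCC38, so SUM149PT stood near HCC38 and above MDA-MB-468.

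Of the 3 genes taken as markers of the basal layer, KRT14 was higher in SUM149PT than in both lines, KRT5 was somewhat lower than in MDA-MB-468 and far above HCC38, and TP63 was nearly absent. KRT5 (chromosome 12, 52908359-52914314, GRCh37) was at 1901 and 1885 CPM in SUM149PT, 2558 and 2277 in MDA-MB-468 and 58.0 and 61.4 in HCC38. The log2 difference was -0.35 ± 0.09 (SE) against MDA-MB-468 (adjusted p = 0.0055) and 4.99 ± 0.11 against HCC38 (adjusted p = 2.0e-10), so KRT5 did not pass the 2-fold limit in both. KRT14 (chromosome 17, 39738531-39743147) was at 57.8 and 61.3 CPM, against 16.7 and 15.8 in MDA-MB-468 and 0.577 and 0.36 in HCC38, with log2 differences of 1.87 ± 0.13 and 6.99 ± 0.19 (larger adjusted p = 3.4e-07). Per kilobase of exon, KRT14 reached 26.4 CPM in SUM149PT against 458 for KRT5. TP63 had 34 counts over both SUM149PT libraries, 0.486 and 0.526 CPM, against 0.968 and 0.494 in MDA-MB-468 and 2.1 and 1.92 in HCC38. Its log2 difference of -0.53 ± 0.41 against MDA-MB-468 missed the threshold (adjusted p = 0.28), and that of -1.98 ± 0.37 against HCC38 passed (adjusted p = 0.00075). Of the 3 markers, KRT14 alone was called higher than in both lines.

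Over all 21 tested genes of the basal and myoepithelial list, 2 were higher (9.52%, against 8.66% of all genes). In the same list 5 were lower (23.8%, against 10.8%) and 14 were neither. The other gene that rose was KRT17, at 419 and 405 CPM against 158 and 168 in MDA-MB-468 and under 1 CPM in HCC38, and that call was not made in the RP19 KD libraries, where the log2 difference from MDA-MB-468 was 0.87. The 5 lower genes were KRT15, the membrane metalloendopeptidase MME, the oxytocin receptor OXTR, FOXC1 and the smooth muscle gene CNN1. KRT15 stood at 19.6 and 19.5 CPM in SUM149PT, 117 and 119 in MDA-MB-468 and 62.9 and 67.0 in HCC38. MME stood at 7.35 and 6.21 CPM, against 26.5 and 24.4 and against 66.0 and 63.5. FOXC1, a transcription factor used to recognise basal-like tumors, was at 19.2 and 18.0 CPM against 58.2 and 62.2 and against 36.6 and 39.2, and its log2 difference of -1.03 from HCC38 lay at the fold limit and fell to -0.98 without SUM149PT replicate 2 and -0.99 without HCC38 replicate 2.

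None of the 24 tested luminal markers was higher in SUM149PT than in both lines and 4 were lower (16.7%, against 10.8% of all genes). These were genes of luminal progenitor cells, namely the membrane protein PROM1 (CD133), the aldehyde dehydrogenase ALDH1A3, the receptor KIT and the transcription factor ELF5. PROM1 had 3 counts over both SUM149PT libraries, against 72.0 and 72.3 CPM in MDA-MB-468 and 8.21 and 7.9 in HCC38. KIT had 0 counts in SUM149PT, which put it at least 20.3-fold lower than MDA-MB-468 (1.05 and 0.753 CPM) and at least 57.7-fold lower than HCC38 (2.1 and 3.04 CPM), taking 3 counts over both libraries as the floor. ELF5 also had 0 counts in SUM149PT but was at 0.188 and 0.0779 CPM in MDA-MB-468, and in the RP19 KD libraries the log2 difference from that line was 3.13, in the opposite direction. The luminal keratins were present in SUM149PT, KRT8 at 1345 and 1447 CPM, KRT18 at 361 and 385 and KRT19 at 737 and 784. KRT7, found in simple epithelium, was at 4397 and 4693 CPM against 1855 and 1917 in MDA-MB-468 and 2437 and 2283 in HCC38. Its log2 difference of 0.95 ± 0.09 from HCC38 fell just under the fold limit. The estrogen receptor gene ESR1 was at 2.89 and 2.3 CPM.

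**Figure D1:**
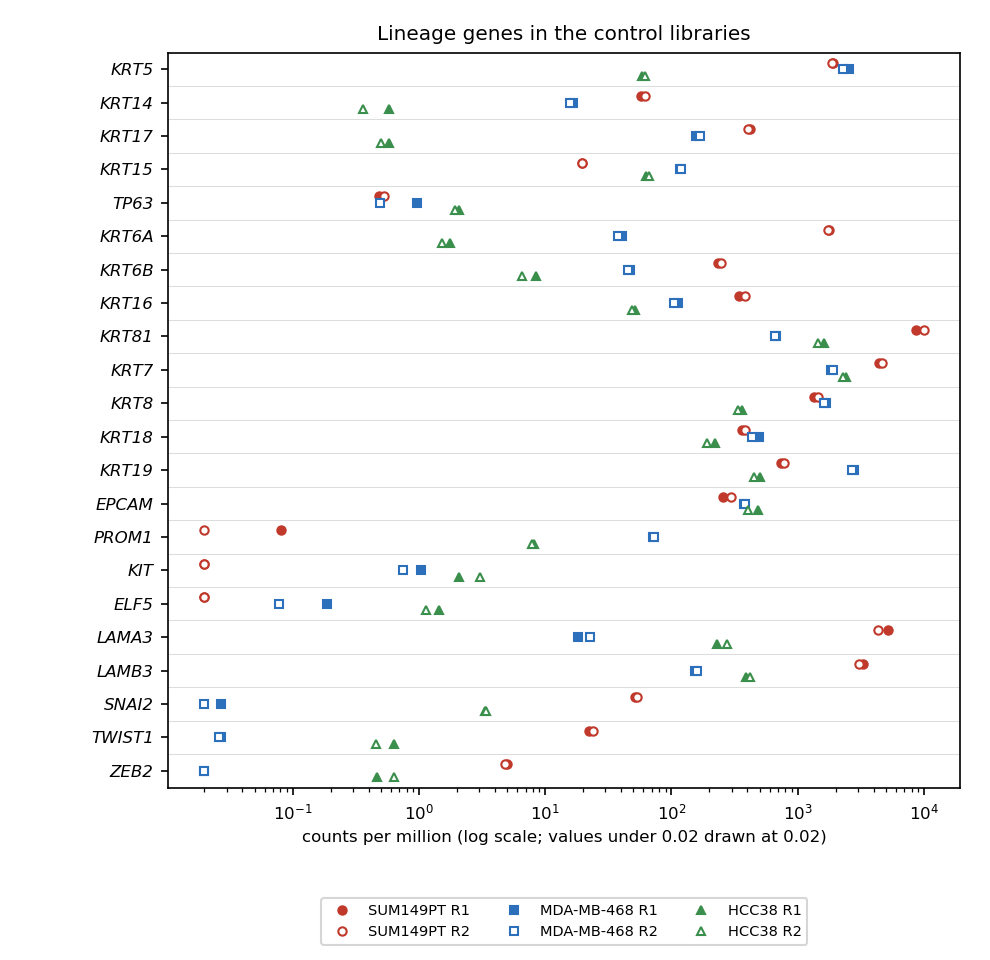
Levels of 22 lineage genes in the 6 control libraries, in CPM on a log axis, with a filled and an open symbol for replicates 1 and 2 of each line. SUM149PT lay somewhat below MDA-MB-468 for KRT5, above both lines for KRT14, KRT6A, LAMA3 and LAMB3, and below both for PROM1, KIT and ELF5.

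Genes of laminin-332, the laminin that anchors epithelial cells to the basement membrane, were higher in SUM149PT. Of 14 tested genes of laminin-332 and the hemidesmosome, 5 were higher than in both lines (35.7%, against 8.66% of all genes) and 0 were lower. The median log2 difference of the 14 was 1.39 against MDA-MB-468 and 0.88 against HCC38, where that of all genes tested was 0.01 and -0.04. LAMA3, the alpha chain, was at 5219 and 4295 CPM in SUM149PT, 18.2 and 22.8 in MDA-MB-468 and 232 and 274 in HCC38, a log2 difference of 7.86 ± 0.18 and 4.23 ± 0.15. LAMB3, the beta chain, was at 3299 and 3076 CPM against 153 and 161 and against 389.7 and 421. Both were raised, with no overlap between SUM149PT and the other 4 libraries and a larger adjusted p of at most 3.4e-09. COL7A1, which forms the anchoring fibrils below the laminin, and PLEC, which links hemidesmosomes to keratin, were higher as well, but PLEC was at the limit and its log2 difference from MDA-MB-468 was 0.99 without SUM149PT replicate 1. COL7A1 was not called in the RP19 KD libraries, where the log2 difference from HCC38 was 0.80.

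Genes of squamous and epidermal differentiation divided within the list. Of 43 tested, 11 were higher (25.6%, against 8.66% of all genes) and 11 lower (25.6%, against 10.8%) than in both lines. The genes that rose included the keratins of activated keratinocytes and the small proline-rich proteins of the cornified envelope. KRT6A was at 1763 and 1743 CPM in SUM149PT, 40.5 and 37.5 in MDA-MB-468 and 1.75 and 1.52 in HCC38, with log2 differences of 5.49 ± 0.11 and 10.06 ± 0.14 (larger adjusted p = 7.3e-11). KRT16, its usual partner, was at 341 and 382 CPM against 112 and 104 and against 51.9 and 49.1. KRT81, a hair keratin, was at 8684 and 10078 CPM against 679.6 and 663 and against 1628 and 1463. The keratins KRT6A, KRT6B and KRT6C and the genes SPRR2A, SPRR2D and SPRR2E share long stretches of sequence, and reads may be divided unevenly among them. SERPINB5 (maspin), the protease inhibitor PI3 (elafin) and the cystatin CSTA were also higher.

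The genes that fell were led by the tissue kallikreins, serine proteases that shed the surface layer of squamous epithelium and that are encoded side by side on chromosome 19. KLK5 was at 0.568 and 1.31 CPM in SUM149PT, 1458 and 1311 in MDA-MB-468 and 906 and 881 in HCC38, with log2 differences of -10.56 ± 0.24 and -9.93 ± 0.24 (larger adjusted p = 2.9e-10). KLK6 was at 0.27 and 0.197 CPM against 304 and 287 and against 70.0 and 72.6. KLK10 was at 0.324 and 0.197 CPM against 61.3 and 61.3 and against 109 and 112. KLK7, KLK8 and KLK11 of the same list, and their neighbour KLK14, which was not in it, were lower than in both lines too, and KLK8 and KLK11 had 0 counts in SUM149PT. Next to KLK14, CTU1 was at 14.6 and 19.1 CPM against 23.4 and 27.4 and against 23.4 and 20.2 and was not called. The envelope proteins involucrin (IVL) and filaggrin (FLG) were lower as well, IVL at 0.405 and 0.788 CPM against 22.7 and 21.4 in MDA-MB-468 and 11.2 and 10.9 in HCC38. Of 16 tested S100 genes, 2 were higher (12.5%, against 8.66% of all genes) and 3 lower (18.75%, against 10.8%). S100P was at 464 and 548 CPM against 52.6 and 47.6 and against 1.39 and 1.68, and S100A2 at 365 and 417 CPM against 46.6 and 44.8 and against 31.1 and 26.8. S100A9, a subunit of calprotectin, was at 9.62 and 12.9 CPM against 1057 and 819 and against 113 and 91.5.

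The list with the largest share of members higher in SUM149PT was that of inflammatory cytokines and chemokines. Of 39 tested, 15 were higher (38.5%, against 8.66% of all genes), 6 were lower (15.4%, against 10.8%) and 18 were neither. The median log2 difference of the 39 was 3.42 against MDA-MB-468 and 0.52 against HCC38. The promoters of the CXC chemokines among them are printed because CXCL1, CXCL2, CXCL3 and CXCL8 were all higher in SUM149PT and all carry the same NF-kappaB recognition sequence. The 120 bases before the transcription start are given on the gene's strand, from RefSeq (GRCh38.p14), with each match to GGAATTTCC in capitals.
CXCL1 (chr4:73869273-73869392, plus strand): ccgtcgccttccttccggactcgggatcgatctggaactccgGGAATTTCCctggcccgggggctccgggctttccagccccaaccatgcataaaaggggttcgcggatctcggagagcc
CXCL2 (chr4:74099196-74099315, minus strand): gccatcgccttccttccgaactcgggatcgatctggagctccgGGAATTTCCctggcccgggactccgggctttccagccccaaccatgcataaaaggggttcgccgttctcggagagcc
CXCL3 (chr4:74038690-74038809, minus strand): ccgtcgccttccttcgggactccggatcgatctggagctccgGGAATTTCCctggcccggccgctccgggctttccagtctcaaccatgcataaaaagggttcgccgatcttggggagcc
CXCL8 (chr4:73740449-73740568, plus strand): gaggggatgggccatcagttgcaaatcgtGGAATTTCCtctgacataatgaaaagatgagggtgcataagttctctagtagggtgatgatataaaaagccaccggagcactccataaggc

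The match began 78 bases before the start in CXCL1 and CXCL3, 77 bases before it in CXCL2 and 91 bases before it in CXCL8. Searched on both strands over 250 bases before the start, GGAATTTCC was found in 117 of 27305 promoters (0.428%). It was found in 4 of 14 promoters of the cytokine genes higher in SUM149PT that matched the promoter table and in 4 of 17 promoters of the other tested members, namely CXCL5, CXCL6, CXCL10 and CXCL11. A match was thus found in 28.6% of the higher members and in 23.5% of those that were lower or not called. It is a description of letters, not of binding.

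CXCL1, a chemokine that draws neutrophils, was the most abundant of the group, at 485 and 528 CPM in SUM149PT, 2.26 and 2.34 in MDA-MB-468 and 92.6 and 86.3 in HCC38. CXCL8 (IL-8) was at 187 and 193 CPM against 4.33 and 5.12 and against 15.4 and 12.4, with log2 differences of 5.33 ± 0.15 and 3.77 ± 0.13 (larger adjusted p = 3.3e-09). CXCL2 and CXCL3 were at 31.2 to 44.8 CPM in SUM149PT and at most 6.63 CPM elsewhere, with the reservation that CXCL1, CXCL2 and CXCL3 are close paralogs. CCL20, which attracts lymphocytes and dendritic cells to epithelium, was at 21.4 and 27.5 CPM against 0.161 and 0.104 and against 2.8 and 2.52. In each of these 5 chemokine genes HCC38 lay between the other lines.

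Both genes of interleukin-1 were higher in SUM149PT. IL1B was at 26.6 and 26.5 CPM, against 0.134 and 0.104 in MDA-MB-468 and 0.107 and 0.2 in HCC38 (log2 7.77 ± 0.26 and 7.39 ± 0.24, larger adjusted p = 1.7e-09). IL1A was at 30.8 and 29.3 CPM, against 0 counts in MDA-MB-468, at least 758-fold higher, and 0.278 and 0.36 CPM in HCC38. IL1RN, which encodes the secreted antagonist of the same receptor, was higher too, at 26.9 and 28.1 CPM against 8.92 and 7.33 and against 0.556 and 0.54. IL32, a cytokine that induces other cytokines, was at 161 and 184 CPM against 0.134 and 0.13 and against 8.68 and 7.12. The hematopoietic factor CSF3 (G-CSF) was at 22.8 and 24.0 CPM against 0 counts in MDA-MB-468, at least 590.03-fold higher, and 0.0855 and 0.08 CPM in HCC38. The alarmin IL33 was at 5.11 and 3.98 CPM with 3 counts over the 4 libraries of the other lines. TNF, IL24, CSF2, IL36G and PPBP were higher as well, and PPBP was not called in the RP19 KD libraries.

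IL6 was not called higher than in both lines. It was at 13.4 and 14.98 CPM in SUM149PT, 1.32 and 1.32 in MDA-MB-468 and 9.71 and 9.46 in HCC38, and its log2 difference of 0.56 ± 0.14 from HCC38 was under the fold limit. LIF, of the same family, did not differ by 2-fold from either line. The 6 lower genes were CX3CL1, CCL22, CCL28, CCL2, the death ligand TNFSF10 (TRAIL) and MIF. CX3CL1 (fractalkine) was at 0.0811 and 0.0657 CPM in SUM149PT, 93.1 and 95.9 in MDA-MB-468 and 33.2 and 33.6 in HCC38. CCL2 had 0 counts in SUM149PT and was at 0.376 and 0.13 CPM in MDA-MB-468 and 1.43 and 1.64 in HCC38. MIF was under 3 CPM in all 6 libraries, and CCL28 kept the call under 12 of 19 other settings.

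**Figure D2:**
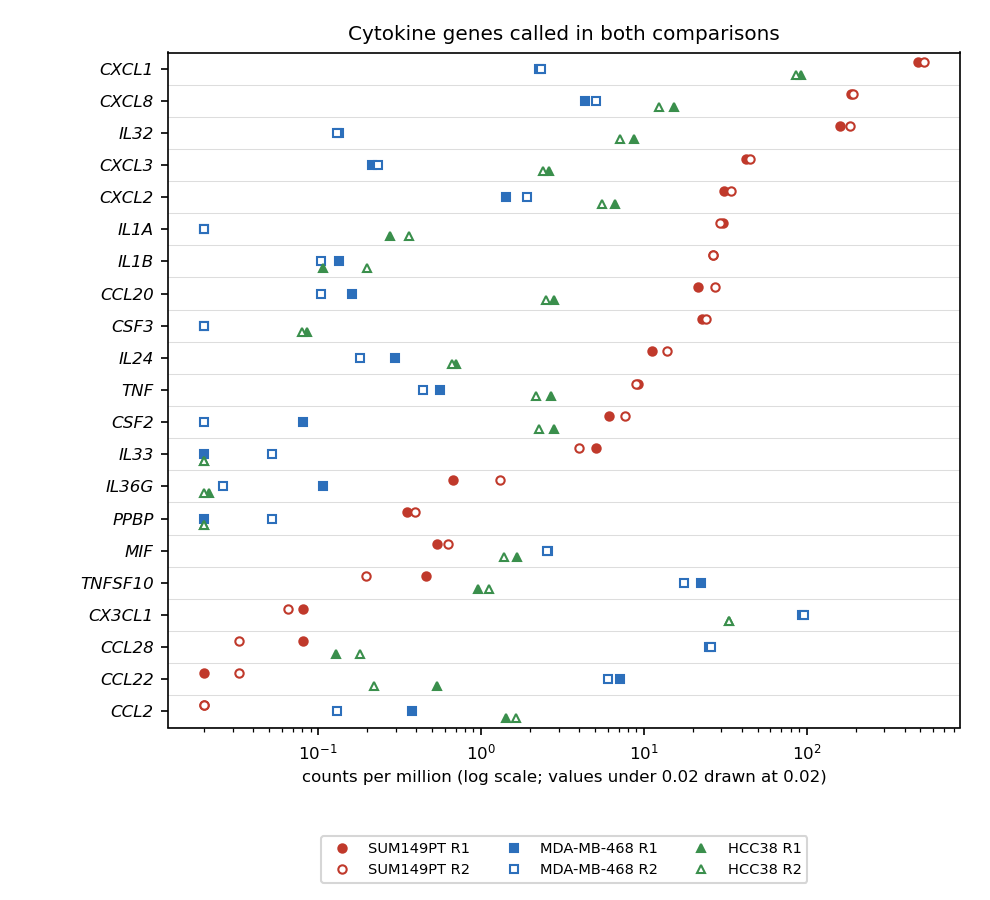
The 21 cytokine genes called in both comparisons, in CPM on a log axis, by library, with filled and open symbols for replicates 1 and 2. For the 15 genes in the upper rows both SUM149PT libraries lay above the other 4, and for the 6 in the lower rows both lay below them.

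Receptors and regulators were counted next. Of 42 tested cytokine receptors and decoys 9 were higher (21.4%, against 8.66% of all genes) and 2 lower (4.76%, against 10.8%). The median log2 difference of the 42 was 0.37 against MDA-MB-468 and 0.02 against HCC38, so the list as a whole lay near HCC38. Of 35 NF-kappaB factors, inhibitors and targets 5 were higher (14.3%, against 8.66% of all genes) and 1 lower (2.86%, against 10.8%). IL20RB, a receptor subunit for IL-20 and IL-24, was at 43.3 and 45.4 CPM in SUM149PT against 3.31 and 2.52 in MDA-MB-468 and 3.79 and 3.84 in HCC38. TLR4, the endotoxin receptor, was at 3.57 and 2.99 CPM against 0.0269 and 0.0779 and against 0 counts, and TLR3, a receptor for double-stranded RNA, at 8.97 and 8.41 CPM against 1.91 and 1.09 and against 2.57 and 2.1. TLR5, the flagellin receptor, went the other way, at 0.649 and 0.657 CPM against 5.11 and 5.27 and against 2.99 and 3.74. PTGS2 and PTGES, which encode enzymes of prostaglandin E2 synthesis, were both higher. PTGS2 (cyclooxygenase-2) was at 39.4 and 33.6 CPM against 0 counts in MDA-MB-468, at least 921-fold higher, and 2.76 and 3.32 CPM in HCC38, and PTGES was at 147 and 138 CPM against 31.4 and 33.6 and against 27.0 and 30.4. The lower member of the NF-kappaB list was IRAK3, an inhibitor of Toll-like receptor signaling, with 2 counts over both SUM149PT libraries against 1.02 and 1.25 CPM and against 2.67 and 3.02 CPM, and 2 genes were lower without HCC38 replicate 1. Median log2 differences of the NF-kappaB list were 0.70 and 0.67.

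Acute phase, complement and antimicrobial genes divided, with 5 of 28 tested higher (17.9%, against 8.66% of all genes) and 10 lower (35.7%, against 10.8%). C3, the central complement protein, was at 1493 and 1276 CPM in SUM149PT, 25.6 and 20.9 in MDA-MB-468 and 5.45 and 7.1 in HCC38, with log2 differences of 5.90 ± 0.17 and 7.78 ± 0.18 (larger adjusted p = 4.0e-10). SAA1, which is nearly identical to SAA2 in part of its sequence, CD55 and PI3 were among the others that rose. The lower genes included the defensin DEFB1 with 3 counts in SUM149PT, ceruloplasmin (CP), the chitinase-like CHI3L1 and CHI3L2, and the complement genes CFI, C5 and SERPING1. CHI3L1 was at 0.459 and 0.723 CPM against 6.15 and 4.96 and against 23.6 and 27.4.

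Interferon-stimulated genes were more often lower. Of 50 tested 13 were lower than in both lines (26%, against 10.8% of all genes) and 3 were higher (6%, against 8.66%). MX1 was at 9.03 and 4.53 CPM in SUM149PT, 38.3 and 36.4 in MDA-MB-468 and 108 and 121 in HCC38. PARP14 was at 20.6 and 18.4 CPM against 69.7 and 73.8 and against 92.8 and 101. The transcription factor IRF1 was at 27.2 and 30.3 CPM against 70.7 and 75.4 and against 85.6 and 82.2. OAS1, GBP1, GBP2, USP18 and CMPK2 moved in the same direction. BST2, IFITM2 and IFI27, of the same list, were higher. BST2 (tetherin) was at 156 and 179 CPM against 3.74 and 3.71 and against 4.34 and 4.5, and IFITM2 at 108 and 117 CPM against 2.07 and 2.05 and against 0.406 and 0.22. The median log2 difference of the list was 0.21 against MDA-MB-468 and -2.21 against HCC38, so the list as a whole lay below HCC38 and near MDA-MB-468. STAT3, a factor downstream of IL-6, was at 142 and 123 CPM against 291 and 328 and against 296 and 338 and was lower than in both lines, but not in the RP19 KD libraries, where the log2 difference from MDA-MB-468 was -0.82. JAK2 was lower in both. Of 14 tested MHC class II genes and regulators 0 were higher and 1 was lower (7.14%, against 10.8% of all genes). The lower gene, the protease CTSS, was at 2.08 and 1.94 CPM against 6.07 and 5.66 and against 38.6 and 34.9. CTSS was not called in the RP19 KD libraries.

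The ligands of the EGF receptor divided by gene. Of 14 tested genes of the family, AREG, EREG and EPGN were higher than in both lines (21.4%, against 8.66% of all genes). EGF and NRG2 were lower (14.3%, against 10.8%). AREG (amphiregulin) was at 46.0 and 42.1 CPM in SUM149PT, 0.161 and 0.234 in MDA-MB-468 and 3.02 and 2.9 in HCC38. AREGB, which GRCh37 lists as a further copy of AREG, was at 23.5 and 20.9 CPM against 0 counts in all 4 other libraries, and because the copies are nearly identical the counts of both are uncertain. EREG (epiregulin) was at 174 and 155 CPM against 0.564 and 0.649 and against 70.2 and 77.8, and EGF itself was at 0.0811 and 0.0657 CPM against 6.75 and 6.34 and against 5.37 and 6.12. The receptor EGFR was at 304 and 230.4 CPM in SUM149PT, 4954 and 5919 in MDA-MB-468 and 134 and 177 in HCC38 and was called in neither direction. The raised ligand genes and the chemokine genes lie in a single stretch of chromosome 4. From CXCL8 to AREGB (74606236-75490486 in GRCh37, 884 kb) 14 genes were tested, of which 11 were higher than in both lines, 0 were lower and 3 (CXCL5, CXCL6 and PF4V1) were neither. Of all tested genes 8.66% were higher than in both lines, and of those on chromosome 4 13%. This stretch was chosen after the values were seen. Its end genes, CXCL8 and AREGB, are themselves among the 11, as are the near-identical copies AREG and AREGB. Its count is therefore a description. The folate enzyme gene MTHFD2L, in the middle of it, was at 35.6 and 36.96 CPM against 9.35 and 8.83 and against 9.45 and 7.78, and PF4 was at 11.2 and 11.6 CPM against at most 0.128 CPM in any other library.

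Growth factor receptors were more often lower, 11 of 40 tested (27.5%, against 10.8% of all genes), with 2 higher (5%, against 8.66%). FGFR1, FGFR2 and FGFR3 were all among the 11, and FGFR1 was at 8.68 and 8.18 CPM in SUM149PT, 55.3 and 59.9 in MDA-MB-468 and 186 and 216 in HCC38. EPHB2, an ephrin receptor, was at 6.38 and 6.11 CPM against 100.4 and 102 and against 39.0 and 42.5, and NOTCH3 at 84.2 and 63.1 CPM against 978 and 1118 and against 148 and 204. The Wnt receptor ROR2 was higher, at 45.8 and 40.5 CPM against 0.0538 and 0.052 and against 7.08 and 7.82, as was IGF1R. The lymphangiogenic ligand VEGFC, one of 23 tested genes linked to inflammatory breast cancer, was at 83.5 and 89.8 CPM against 0.0269 and 0.052 and against 7.14 and 5.1. Of that list 2 genes were higher (VEGFC and PTGS2) and 3 lower (ARHGEF6, STAT3 and JAK2), shares of 8.70% and 13.04%, against 8.66% and 10.8% of all genes.

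Mesenchymal genes were higher in 9 of 43 tested (20.9%, against 8.66% of all genes) and lower in 2 (4.65%, against 10.8%). The median log2 difference was 3.35 against MDA-MB-468 but -0.17 against HCC38, so the list as a whole lay above MDA-MB-468 and near HCC38. SNAI2 (Slug) was at 51.3 and 53.1 CPM in SUM149PT, 0.0269 and 0 in MDA-MB-468 and 3.34 and 3.4 in HCC38. TWIST1 was at 22.3 and 24.1 CPM against 0.0269 and 0.026 and against 0.642 and 0.46, and ZEB2 at 4.97 and 4.8 CPM against 0 counts and against 0.471 and 0.64. These 3 genes encode transcription factors that lower E-cadherin in other settings. FN1 (fibronectin) was at 2072 and 1465 CPM against 37.3 and 37.9 and against 458 and 667, and THBS1 (thrombospondin) at 3616 and 2811 CPM against 347 and 397 and against 538 and 629. VIM (vimentin) was at 161 and 177 CPM, between MDA-MB-468 (14.7 and 12.8) and HCC38 (556 and 454). COL3A1 was called on 24 counts in SUM149PT, lost the call under 10 of 18 other settings and had a log2 difference of -0.37 from MDA-MB-468 in the RP19 KD libraries. The lower genes were COL5A2 and ITGB3, and the count was 1 when any library but MDA-MB-468 replicate 1 was left out. Of 36 junction genes tested 3 were higher (PKP1, ESRP2 and TJP1) and 2 lower (CLDN3 and TJP3). These were 8.33% and 5.56% of the list, against 8.66% and 10.8% of all genes. CLDN3 (claudin-3) was at 0.784 and 0.361 CPM against 43.1 and 45.2 and against 42.8 and 44.9, while EPCAM was at 258 and 295 CPM and was not called.

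Of 32 tested genes of matrix proteases and the plasminogen system 8 were higher (25%, against 8.66% of all genes) and 4 lower (12.5%, against 10.8%). PLAT, the tissue plasminogen activator, was at 306 and 295 CPM in SUM149PT, 1.42 and 1.4 in MDA-MB-468 and 11.1 and 11.1 in HCC38, with log2 differences of 7.73 ± 0.13 and 4.76 ± 0.10 (larger adjusted p = 2.0e-10). SERPINB2, an inhibitor of plasminogen activators, was at 103 and 113 CPM against 3.39 and 3.56 and against 0.192 and 0.06. TIMP1 was higher, at 434 and 500.1 CPM against 39.4 and 38.6 and against 101 and 90.8, and TIMP3, of the same inhibitor family, was lower, at 2.11 and 1.94 CPM against 14.003 and 12.2 and against 101 and 108. ADAM19 and ADAM8 were higher and ADAM10 was lower.

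Genes known to be induced by glucocorticoids are given beside these results because the SUM149PT medium held hydrocortisone and the others are not described as holding it. Of 23 tested, 6 were higher than in both lines (26.1%, against 8.66% of all genes) and 2 were lower (8.70%, against 10.8%). PER1 was at 194 and 180.2 CPM in SUM149PT, 13.8 and 13.6 in MDA-MB-468 and 4.49 and 4.88 in HCC38. FKBP5 was at 286 and 256 CPM against 62.8 and 65.9 and against 60.9 and 69.9, and MT2A, KLF9, DUSP1 and ZBTB16 were the others. GLUL and CRISPLD2 were lower, and TSC22D3, another gene of the list, was at 17.4 and 16.3 CPM against a mean of 132 in MDA-MB-468 and 14.4 in HCC38. The receptor gene NR3C1 was at 63.3 and 58.1 CPM and was not called. The part of the medium in any difference was not tested.

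**Figure D3:**
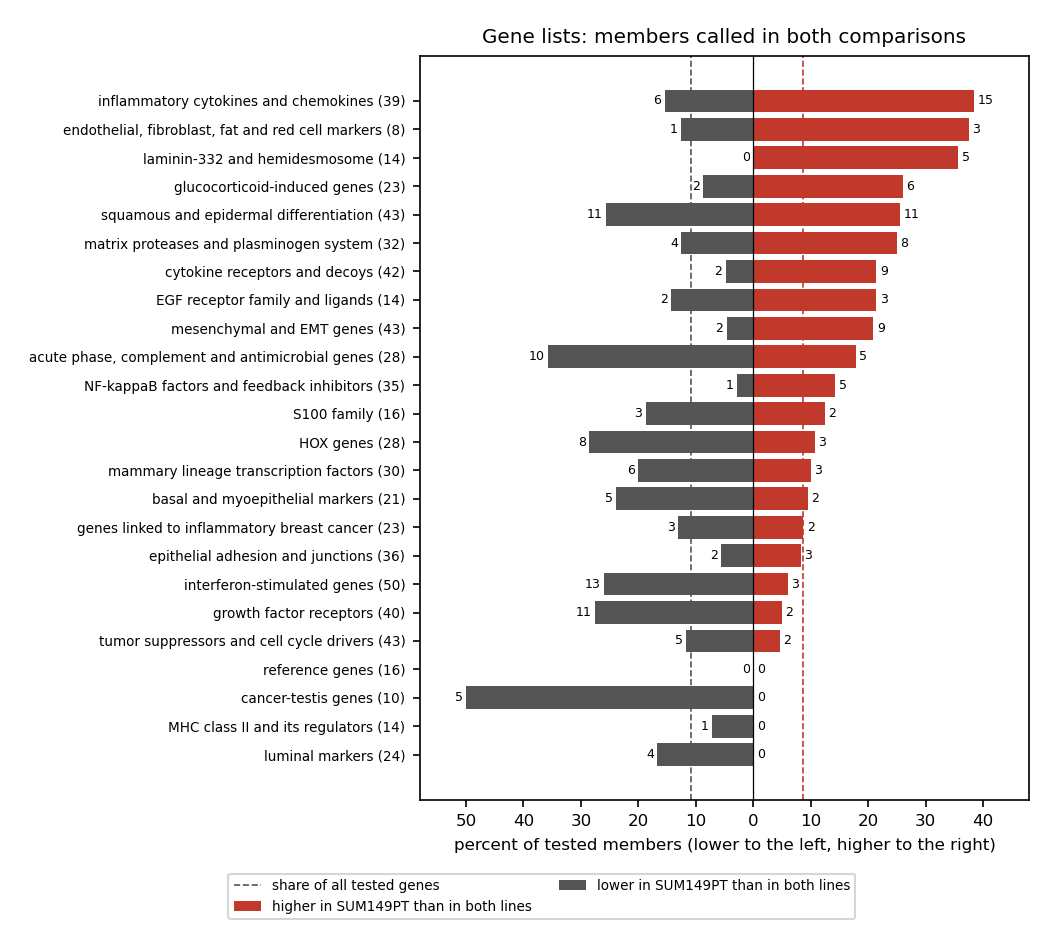
Share of the tested members of 24 gene lists that were higher (right) or lower (left) in SUM149PT than in both other lines, with the number of members at each bar, the number tested in brackets and the shares of all genes tested (8.66% and 10.8%) as broken lines. Cytokines and chemokines had the largest share of higher members, and the 10 tested cancer-testis genes the largest share of lower ones.

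Among transcription factors of mammary lineage, 3 of 30 tested were higher (10%, against 8.66% of all genes) and 6 lower (20%, against 10.8%). RUNX3 was at 186 and 181 CPM against 69.6 and 70.5 in MDA-MB-468 and 32.5 and 36.4 in HCC38, and RUNX2 was higher too, by a log2 difference of 1.60 from each line. ID4, an inhibitor of basic helix-loop-helix factors, was at 2.24 and 2.27 CPM against 53.8 and 67.7 and against 64.7 and 66.9. TCF7L1, a partner of beta-catenin, was at 0.784 and 0.986 CPM against 54.3 and 58.8 and against 29.2 and 30.5. TP73, the relative of TP63, was at 0.378 and 0.197 CPM against 21.0 and 22.3 and against 3.25 and 3.76. Among the genes with the largest differences upward, TBX18, a developmental transcription factor, was at 40.9 and 34.3 CPM against at most 0.0779 CPM in any other library. RFLNA was at 80.8 and 83.5 CPM against at most 0.1 CPM elsewhere, and PLPP4, a lipid phosphatase gene, at 27.8 and 30.8 CPM against 1 count in the 4 other libraries. GPC6, PLD5, RPE65, TRPA1, SDR16C5 and the lncRNAs LINC00958 and LINC02582 were also among the 15 largest. The sources do not pair the identifier ENSG00000104725, at 83.5 and 80.7 CPM in SUM149PT and at most 0.0428 CPM elsewhere, with a name in the annotation used. By a stricter rule, at least 1 CPM in both SUM149PT libraries and at most 3 counts over all 4 others, 41 of 13420 genes (0.306%) were near silent in both other lines. They included the developmental transcription factors EYA4 and TBX20, and 22 of the 41 met the same rule in the RP19 KD libraries.

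The mirror rule, at most 3 counts over both SUM149PT libraries and at least 1 CPM in each of the other 4, found 129 of 12401 genes (1.04%), of which 50 had 0 counts. A count of 0 over both libraries allows a level of up to 0.0445 CPM (3 counts), and this limit covers counting error only. Of the 129, 105 were protein coding, and 80 also had at most 3 counts in the RP19 KD libraries of SUM149PT, which were read to a similar depth or deeper. By the whole rule, with at least 1 CPM in the other lines as well, 64 were near silent in the RP19 KD libraries. The most abundant in the other lines after PROM1 was LYNX1, at 69.3 and 71.0 CPM in MDA-MB-468 and 5.58 and 5.24 in HCC38. AUTS2 had 0 counts in SUM149PT and was at 47.1 and 56.5 CPM in MDA-MB-468 and 8.98 and 9.94 in HCC38. The iron carrier TF, the growth factor binding protein IGFBP5, EYA2, BHMT2, PNMA8A and CLDN10 were the other named genes of the 10 most abundant. BMP7, a ligand of the TGF-beta family, had 3 counts in SUM149PT and 23.4 to 24.2 CPM in each of the other 4 libraries. Of 10 tested cancer-testis genes 5 were lower than in both lines (50%, against 10.8% of all genes). CT83 led them, with 0 counts against 11.3 and 7.53 CPM and against 8.64 and 6.62 CPM. Without SUM149PT replicate 1 or without MDA-MB-468 replicate 1, 3 were lower, where TEX14 and MAGEA4 lost the call. TEX14 lost it as well without either HCC38 library.

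Order along the chromosome was taken over genes at 1 CPM or more in each of the other 4 libraries, so genes under that level may lie between. In that order 22 of the 129 near-silent genes stood next to another such gene, in 9 runs. Of these runs 5 were of zinc finger genes on chromosome 19. In GRCh37 the longest were ZNF415, ZNF347, ZNF665 and ZNF818P (chromosome 19, 53611132-53717775) and ZNF542P, ZNF582, ZNF582-DT and ZNF583 (56884619-56947404). The promoters of ZNF415, ZNF347 and ZNF582, and that of ZNF677, the single zinc finger gene with the largest difference after ZNF542P, are printed because these genes were all but absent in SUM149PT. The 150 bases before the start are given from RefSeq (GRCh38.p14), all on the minus strand, with each CG dinucleotide in capitals.
ZNF677 (chr19:53254824-53254973): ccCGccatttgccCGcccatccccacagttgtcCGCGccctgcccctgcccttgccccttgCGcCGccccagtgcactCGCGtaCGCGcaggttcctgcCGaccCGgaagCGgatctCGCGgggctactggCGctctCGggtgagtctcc
ZNF347 (chr19:53159054-53159203): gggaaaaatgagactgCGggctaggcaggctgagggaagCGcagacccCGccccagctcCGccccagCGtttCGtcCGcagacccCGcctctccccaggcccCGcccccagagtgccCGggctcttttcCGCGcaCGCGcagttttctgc
ZNF415 (chr19:53132911-53133060): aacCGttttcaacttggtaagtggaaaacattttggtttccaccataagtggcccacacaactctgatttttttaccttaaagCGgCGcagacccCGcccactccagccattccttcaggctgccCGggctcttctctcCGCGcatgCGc
ZNF582 (chr19:56393535-56393684): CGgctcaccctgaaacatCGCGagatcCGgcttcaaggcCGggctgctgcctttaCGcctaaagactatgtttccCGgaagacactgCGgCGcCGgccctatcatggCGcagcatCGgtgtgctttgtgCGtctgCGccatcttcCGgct

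These stretches hold 17, 14, 8 and 15 CG dinucleotides. Over 250 bases before the start, the 20 near-silent ZNF genes of chromosome 19 with a promoter in the table had a median of 16 CG dinucleotides (7 to 29), and the 179 that were not near silent had a median of 16 (1 to 35), against 11 for all 27305 promoters. The median was thus the same in near-silent and other members of the family. DNA methylation was not measured.

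ZNF677 had 0 counts in SUM149PT and was at 14.5 and 17.1 CPM in MDA-MB-468 and 17.4 and 19.1 in HCC38, at least 356-fold and at least 410-fold lower. ZNF542P, a transcribed pseudogene, had 0 counts against 19.997 and 16.1 CPM and against 18.8 and 17.5 CPM. ZNF347 had 1 count against 15.1 and 14.3 CPM and against 19.3 and 22.8 CPM. In the RP19 KD libraries of SUM149PT the mean level was 0 CPM for ZNF677 and ZNF471, 0.015 CPM for ZNF542P and 0.034 CPM for ZNF347.

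ZNF genes of chromosome 19 were counted next. The family was singled out after the values were seen, so its counts are a description. On chromosome 19, 270 genes with a ZNF symbol were tested, antisense transcripts and pseudogenes included. Of these, 155 were lower in SUM149PT than in both lines (57.4%, against 10.8% of all genes) and 2 were higher (0.74%, against 8.66%). By the same rule 6 were lower in MDA-MB-468 than in the other 2 lines (2.22%, against 11.8% of all genes). In HCC38 3 were lower (1.11%, against 8.04%). The mean level was lowest in SUM149PT for 209 of the 270, in MDA-MB-468 for 24 and in HCC38 for 33. The median log2 difference of the 270 was -1.72 against MDA-MB-468 and -1.42 against HCC38. Summed over the 270 genes, the level was 1670.0 and 1639 CPM in SUM149PT, 3741 and 3542 in MDA-MB-468 and 3199 and 3103 in HCC38. At most 3 counts were found for 48 of the 270 genes in SUM149PT, 3 in MDA-MB-468 and 4 in HCC38. In the RP19 KD libraries the sums were 2446 and 2372, 5901 and 6088, and 3663 and 3503 CPM, with SUM149PT again lowest.

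The same counts were made for ZNF genes elsewhere and for the other genes of the chromosome. Among genes at 1 CPM or more in the other 4 libraries, a choice that favors lower values in SUM149PT, 131 of 223 ZNF genes on chromosome 19 were lower (58.7%), against 22 of 221 on other chromosomes (9.95%), 89 of 701 other genes of chromosome 19 (12.7%) and 8.83% of the remaining genes. Near-silent members made up 25 of the 223 and 3 of the 221. They were not in a single place, with 6 of 18 between 10 and 15 Mb of chromosome 19, 7 of 41 between 50 and 55 Mb and 7 of 60 between 55 and 60 Mb.

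**Figure D4:**
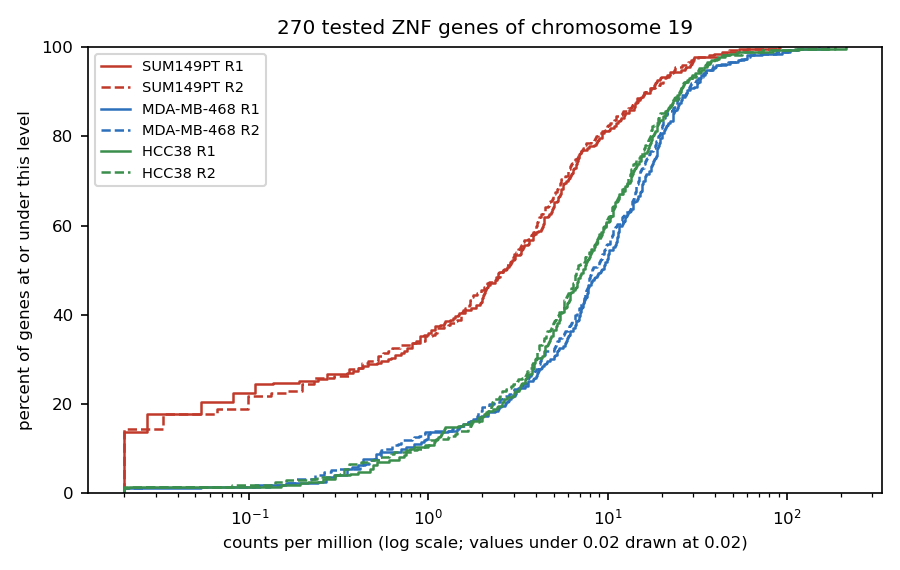
Cumulative share of the 270 tested ZNF genes of chromosome 19 (vertical axis, percent) at or under a given level (horizontal axis, CPM, log scale), by library. Both SUM149PT curves lie to the left of the other 4, and 48 of the 270 genes had at most 3 counts over the 2 SUM149PT libraries.

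Several genes of the HOXB cluster on chromosome 17 were lower in SUM149PT than in both lines. HOXB4 had 0 counts in SUM149PT against 7.28 and 8.29 CPM in MDA-MB-468 and 11.0 and 14.1 in HCC38. HOXB2 and HOXB6 also had 0 counts, but in MDA-MB-468 they were only at 0.699 and 0.623 CPM and at 1.45 and 1.35 CPM. In HCC38 they were at 22.5 to 29.6 CPM. HOXB5, HOXB8 and HOXB9 were at most 0.104 CPM in MDA-MB-468 as well and were not called. HOXB3 and HOXB7 were lower as well, at 4 and 40 counts in SUM149PT against 13.5 to 15.4 CPM in MDA-MB-468. HOX genes set position along the body axis. Of 28 tested, 8 were lower (28.6%, against 10.8% of all genes) and 3 higher (10.7%, against 8.66%). Those 3 were HOXA9, HOXA10 and HOXA11, with HOXA11 at 18.2 and 19.4 CPM against 1.8 and 2.1 and against 1.37 and 1.56. HOXB13, HOXA4 and HOXC4 completed the 8, and HOXC4 kept the call under 11 of 18 other settings. The count of higher HOX genes was 5 without MDA-MB-468 replicate 1, MDA-MB-468 replicate 2 or HCC38 replicate 2.

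Tumor suppressor genes gave 5 lower (11.6%, against 10.8% of all genes) and 2 higher (4.65%, against 8.66%) of 43 tested. STK11, which encodes the kinase LKB1, was at 0.541 and 1.02 CPM in SUM149PT, 90.1 and 93.4 in MDA-MB-468 and 71.3 and 67.6 in HCC38, with log2 differences of -6.91 ± 0.19 and -6.51 ± 0.19 (larger adjusted p = 1.1e-09). Its neighbour CBARP had 0 counts against 3.63 and 4.03 CPM and against 6.59 and 8.46 CPM. Directly after CBARP, its divergent transcript CBARP-DT was called higher, at 0.541 and 0.854 CPM against at most 0.0855 CPM in any other library. SBNO2, on the other side of STK11, at 209 and 192 CPM, and ATP5F1D, the gene after CBARP-DT, at 169 and 197 CPM, were not called. MTAP, a methionine salvage enzyme on chromosome 9, had 1 count in SUM149PT against 30.2 and 28.1 CPM and against 6.69 and 8.34 CPM. Its neighbours CDKN2A and CDKN2B, which encode inhibitors of CDK4 and CDK6, had 4 and 0 counts in SUM149PT. They were at 146 and 143 CPM and at 23.7 and 22.0 CPM in MDA-MB-468, and HCC38 had 0 and 2 counts of them, so only MTAP of these 3 set SUM149PT apart from both lines. CDKN2C and NF1 were lower as well. CDKN1A (p21) was higher, at 167 and 179 CPM against 44.9 and 46.1 and against 36.96 and 38.0, and 4 genes of the list were higher without SUM149PT replicate 2. DNA copy number was not measured.

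**Figure D5:**
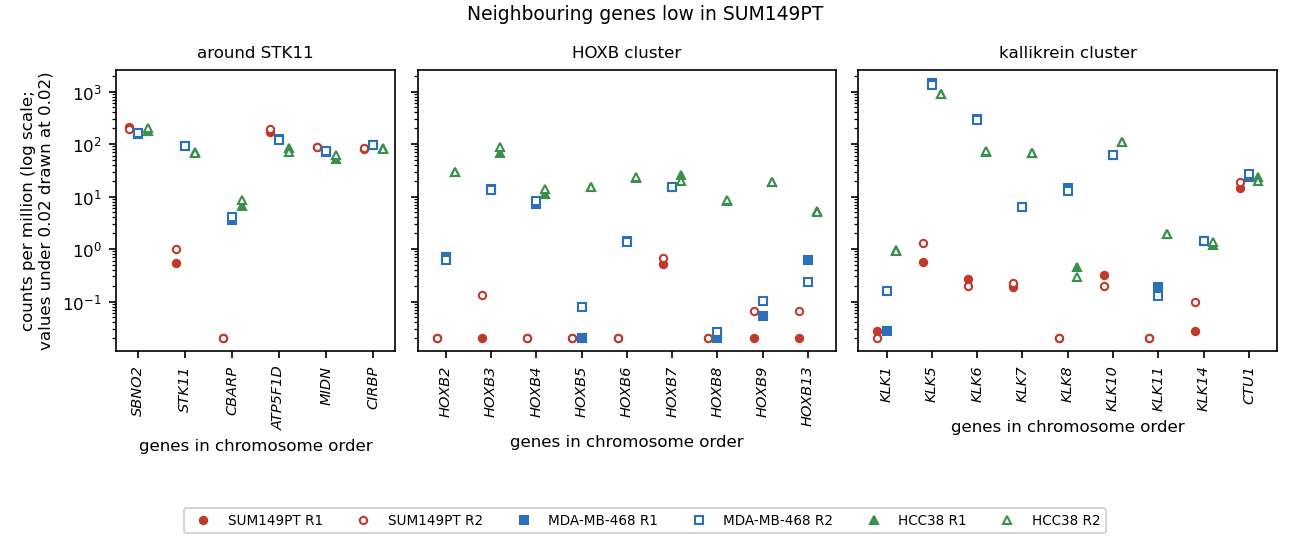
Levels of neighbouring genes, in chromosome order, around STK11, in the HOXB cluster and in the kallikrein cluster, in CPM on a log axis, by library. STK11 and CBARP were lower in SUM149PT than in both lines, while SBNO2 and ATP5F1D were not called, and the kallikrein genes from KLK5 to KLK14 were called lower while CTU1, though below both lines, was not called.

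Markers of other cell types were looked at beside these results. Of 15 immune cell markers 4 passed the filter on low counts and 0 were called (1 without SUM149PT replicate 1, either MDA-MB-468 library or HCC38 replicate 2), CD3D, CD3E and MS4A1 had 0 counts in SUM149PT, PTPRC (CD45) had 3, and the summed level of the list was 12.8 to 15.3 CPM in SUM149PT against 15.5 to 29.3 CPM in the other libraries. Of 15 markers of endothelial, fibroblast, fat and red cells 8 were tested. DCN, COL3A1 and HBA1 were higher (37.5%, against 8.66% of all genes) and KDR lower (12.5%, against 10.8%). DCN (decorin), a fibroblast proteoglycan, was at 8.05 and 10.2 CPM against 0 counts and against 0.171 and 0.16 CPM, while LUM had 0 counts and PDGFRB was at 0.459 and 0.197 CPM. HBA1, whose reads cannot be told apart from those of its near-identical neighbour HBA2, was at 3.05 and 4.27 CPM while HBB had 0 counts.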

How the data were processed

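Gene counts were read from 1 table per library, as deposited by the authors. Per the study's methods and the submitters' processing notes, reads were aligned to GRCh37 (with STAR in the methods, TopHat2 2.0.13 in the notes) and HTSeq 0.6.0 assigned them to Ensembl genes. The sources used here do not name the annotation release. Summary rows, for reads not assigned to a gene for any reason, held 40.8 to 53.7% of the reads listed and were left out of library sizes. Their share was 47.1 and 53.7% in SUM149PT, 50.5 and 47.3% in MDA-MB-468 and 42.0 and 40.8% in HCC38. Gene names came from GENCODE lifted to GRCh37, which matched 55665 of 63677 genes (0.62% of counts lay in the others).

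The 6 LNA NS libraries (2 per line, 32187835 to 48229126 gene counts) were fitted with the quasi-likelihood test of edgeR 4.0.16 in R 4.3.3, with 1 mean per line, TMM normalization, a minimum count of 10 and minimum total of 15, which left 19590 genes and 3 residual degrees of freedom. Every adjusted p is from this test, two-sided, with Benjamini-Hochberg adjustment over all genes of a comparison, and the larger adjusted p is that of the weaker comparison. Replicates of a line differed by more than counting noise (chi-square per degree of freedom 17.6 to 26.0). On simulated counts with 50 genes changed at each fold against both lines, 28% of 2-fold and 96% of 4-fold changes were called, and 0.0108% of unchanged genes. In the simulation few genes changed, and MDA-MB-468 and HCC38 were given the same expected levels. In the data 41.7% of genes were called against MDA-MB-468 and 41% against HCC38. The simulated rates therefore need not hold for the data.

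The members and the 25 gene lists were chosen with earlier results of these data known. Genes were named as markers, as the 15 largest differences in each direction, as up to 6 called members of a list with the smallest adjusted p or its textbook members, and as near-silent genes in runs or among the 10 most abundant, and further members and neighbours were named after their values were seen. Of 796 list entries 787 were matched to the files. Promoters came from RefSeq. Floors at 0 counts cover counting error only. Alternatives were other normalizations, filters, tests and thresholds, the RP19 KD libraries, a replicate block and leaving out each library. Some members of the lists are counted but not reported by name here.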

Additional observations from a re-analysis of the deposited data

How the results depend on the processing

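With only genes at a mean of 1 CPM or more, 1071 genes were higher than in both lines, and against HCC38 5353 were called in either direction and 2931 were lower, since fewer genes were tested. Allowing at most 10 counts, 212 genes were near silent in SUM149PT and 82 in both other lines, and requiring 5 CPM where a gene was expressed left 40 and 12. Of the named genes, COL3A1 and ELF5 changed sign against MDA-MB-468 in the RP19 KD libraries (log2 -0.37 and 3.13), and the cause was not tested. Leaving out each library in turn gave 1613 to 1727 genes higher and 2025 to 2099 lower than in both lines, 8104 to 8430 called against MDA-MB-468 (3951 to 4136 higher, 4080 to 4330 lower), 7862 to 8476 against HCC38 (3390 to 3706 higher, 4388 to 4770 lower), and 136 to 192 and 44 to 59 near-silent genes. DESeq2 gave 1529 higher and 2017 lower, limma-voom 1695 and 2117, and the test against a 2-fold change itself 1175 and 1603. Scaling by total gene counts alone moved the median log2 difference of all genes from HCC38 from -0.04 to -0.16 and gave 1500 higher and 2334 lower. Replicate numbers did not pair the libraries (correlations of deviations -0.11, -0.14 and 0.16), and with the replicate block 1651 genes were higher and 2039 lower. With the SUM149PT numbers crossed in the block, a choice made after seeing the data, the counts were 1690 and 2103. Over all named genes and alternatives 6800 values kept their direction and side of the threshold and 53 no longer passed it. With 2 libraries per line, differences near 2-fold were the least certain, and genes under about 1 CPM rested on few counts.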
